A study of Mus musculus with 8 samples.

Results

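The insulin-like growth factor (IGF) genes described here are the ligands Igf1 and Igf2, the receptors Igf1r and Igf2r, and the binding proteins Igfbp2, Igfbp3, Igfbp4, Igfbp5, Igfbp6 and Igfbp7. The genes were chosen with earlier results of these data known, so that counts over them are not those of a blind choice. Every probe that carries one of these 10 symbols on the array was taken, whatever its values. This gave 15 of the 25697 probes and 10 of the 18138 symbols of the table. 14 of the 15 probes passed the filter on detection (all 4 mice of one strain or of both) and were tested along with the rest of the 10414 probes that passed. The exception is the second Igfbp7 probe, ILMN_2634286, which was detected on 0 of 8 arrays with intensities between -6.91 and 3.07.

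IGF-I and IGF-II are secreted peptides that act through the IGF-I receptor, a tyrosine kinase that drives growth and survival through PI3 kinase and MAP kinase signalling. The IGF-II receptor takes up IGF-II for degradation and also carries lysosomal enzymes, and the binding proteins hold the ligands outside the cell and set how much reaches the receptor. Dermal fibroblasts make both the ligands and several binding proteins, and Igfbp5 and Igfbp7 are known among the proteins that senescent cells secrete.

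RNA came from primary skin fibroblasts of passage 1, grown in DMEM with fetal calf serum, and was hybridised to 1 Illumina BeadChip array per mouse. The study compared C57BL/6J-mtALR/LtJ mice, which carry a leucine-to-methionine exchange in the mitochondrial Nd2 gene (Nd2-mutant mice 28, 32, 34 and 35), with C57BL/6J-mtAKR/J mice as controls (mice 15, 16, 17 and 37), to ask how a mutation of the respiratory chain bears on fibroblast senescence. Both are conplastic strains, in which the mitochondrial genome of a donor strain was placed on the C57BL/6J nuclear background by repeated backcrossing. All mice were 12 months old, and each strain had 2 males (mice 28, 32, 16 and 17) and 2 females (mice 34, 35, 15 and 37). Each strain stands for 1 mitochondrial genome, so that strain and mutation cannot be told apart. Values are given below in the order of mice 28, 32, 34 and 35 for Nd2-mutant mice and 15, 16, 17 and 37 for control mice. They are normalized intensities on the linear scale, whereas fold changes are on the scale of log2(intensity + 16), as Nd2 mutant minus control.

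The cells carried the markers of fibroblasts. Of 15 fibroblast markers on the array, 13 were detected on all 8 arrays, among them Col1a1, Col1a2, Col3a1, Pdgfra and Thy1, and the summed intensity of the list was 46028 to 50820 in Nd2-mutant and 39024 to 55745 in control mice. The array of control mouse 15 stood apart, since it correlated with the rest at a mean r of 0.934, against 0.963 to 0.974 for the other 7. Its summed endothelial markers reached 2225, while the other 7 arrays lay between 388 and 920. In mouse 35, an Nd2-mutant female, summed macrophage markers were 1712 against 253 to 596 elsewhere. Each Nd2-mutant array had more detected probes (10973 to 11350) than any control array (10663 to 10837). The part of these differences in the results below was not tested, and values without mouse 15 are given where it stood out. In such bulk RNA, fewer cells of a type and less RNA per cell cannot be told apart.

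In Nd2-mutant fibroblasts the mean intensity was below that of controls for Igf2r, Igfbp2, Igfbp4, Igfbp5 and Igfbp7 and above it for Igfbp3, Igf1 and Igf1r, but 0 of the 14 tested probes passed the adjusted threshold. The smallest adjusted p of a member was 0.639 in limma. Over all tested probes 0% passed at an adjusted p under 0.05, and the methods' t-test passed 1 gene, Exoc7, which is no IGF gene and was picked out after its values were known. At an unadjusted p under 0.05 there were 4 member probes, against 7.63% of all tested probes. Of these 4, Igfbp2, Igfbp5 and Igfbp7 had lower means in Nd2-mutant mice and Igfbp3 a higher mean. Of all tested probes, 3.13% had an unadjusted p under 0.05 with a lower mean and 4.5% with a higher mean. Igfbp3 passed the filter on detection only through the Nd2-mutant arrays. Igfbp5 and Igfbp7 are on the study's own list of genes lower in Nd2-mutant fibroblasts, which was drawn from these same arrays, so that their direction here is not independent evidence. The same holds for Htra1, Pik3cb, Mcam, Actg2, Cspg4, Ednrb and Emcn (printed there as Emen), of which some are named below. The fold change was negative for 9 of 14 member probes and for 49.8% of all tested probes. Its median was -0.24 over the members, with a range from -1.17 to 0.88, and 0.00 over all tested probes.

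**Figure D1:**
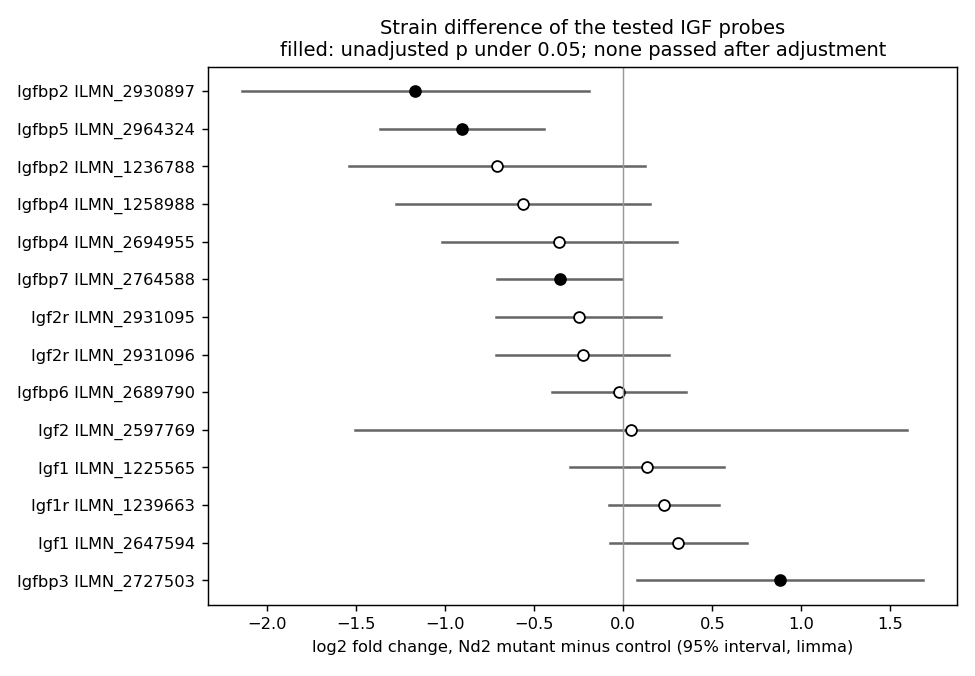
Strain difference of the 14 tested probes of the IGF genes, as the log2 fold change of Nd2-mutant over control mice on the horizontal axis, with 95% intervals from limma. Filled points have an unadjusted p under 0.05 (Igfbp2 ILMN_2930897, Igfbp5, Igfbp7 and Igfbp3). The interval of Igf2 is the widest, from -1.51 to 1.6.

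Of the ligands, Igf1, the main mediator of growth hormone action, was read by 2 probes. With ILMN_1225565 its intensity was 299, 204, 150 and 242 in Nd2-mutant mice and 209, 176, 216 and 187 in control mice. The range of the mutant mice enclosed that of the controls, and the means were 224 ± 62.9 and 197 ± 18.8 (SD, n = 4 each). This is a log2 fold change of 0.13 (SE 0.19), with a 95% interval from -0.30 to 0.57 and an adjusted p of 0.841 in limma. ILMN_2647594 was dim, at 26.4, 13.2, 13.4 and 20.5 in Nd2-mutant mice and 14.9, 8.62, 15.6 and 7.57 in control mice, and was detected on 4 and 2 arrays. This probe passed the filter on detection only through the Nd2-mutant arrays. Mouse 28 had the highest value with both probes. For the dim probe the log2 fold change was 0.31 (SE 0.17; adjusted p = 0.648 in limma).

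Igf2, a fetal growth factor that is expressed from the paternal allele, varied more between mice on the log2 scale than any other member. Its intensity was 662, 158, 103 and 758 in Nd2-mutant mice and 1072, 211, 194 and 170 in control mice. Mice 28, 35 and 15 were high and the other 5 were between 103 and 211, so that each strain held both kinds. Between the strains the log2 fold change was 0.04 (SE 0.70; adjusted p = 0.988 in limma), and its 95% interval from -1.51 to 1.6 leaves room for a large difference in either direction. Without mouse 15 it was 0.64. H19, a long noncoding RNA that neighbours Igf2 and is expressed from the maternal allele, was high in the same 3 mice. Its intensity was 990, 181, 219 and 1081 in Nd2-mutant mice and 682, 97.0, 215 and 208 in control mice. Its log2 fold change was 0.91 (SE 0.66; adjusted p = 0.696 in limma). The 3 high mice are of both strains and both sexes.

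**Figure D2:**
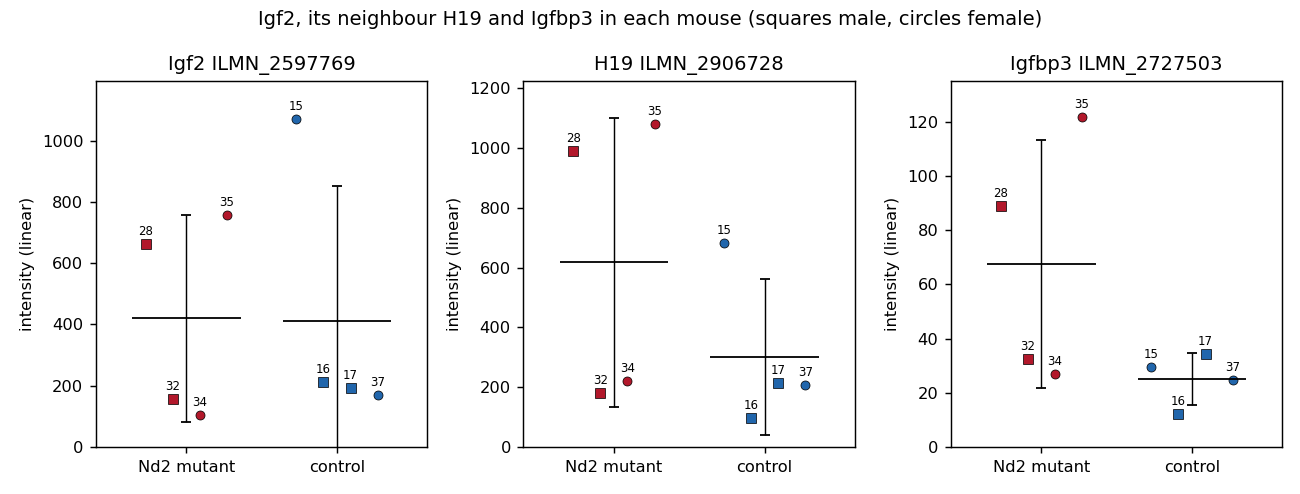
Normalized intensity (linear axis) of Igf2, H19 and Igfbp3 in each mouse, numbered, with squares for males and circles for females. Horizontal lines and bars are the mean and SD of the 4 mice of a strain, and a bar that would pass below 0 is clipped at the axis. Igf2 and H19 were high in mice 28, 35 and 15, and Igfbp3 in mice 28 and 35.

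Of the receptors, Igf1r transmits the signal of both ligands and was read by 1 probe. Its intensity was 87.4, 109, 107 and 112 in Nd2-mutant mice and 96.5, 76.3, 78.7 and 93.9 in control mice. 3 of the 4 Nd2-mutant mice lay above every control mouse and mouse 28 lay among the controls. The means were 104 ± 11.2 and 86.3 ± 10.3 (SD, n = 4 each), and the log2 fold change was 0.23 (SE 0.14; adjusted p = 0.665 in limma). The difference did not pass an exact permutation test over the mice (p = 0.0857, 2-sided).

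Igf2r, the receptor that clears IGF-II, was read by 2 probes, and mouse 15 was the highest with both. With ILMN_2931095 its intensity was 425, 411, 501 and 605 in Nd2-mutant mice and 861, 503, 480 and 519 in control mice. With ILMN_2931096 it was 437, 387, 461 and 553 in Nd2-mutant mice and 824, 426, 420 and 561 in control mice. The strains overlapped with both. The log2 fold changes were -0.25 (SE 0.21; adjusted p = 0.728 in limma) and -0.23 (SE 0.22; adjusted p = 0.761). Without mouse 15 they came to -0.058 and -0.027.

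Igf2r was also the only member with an unadjusted p under 0.05 for sex. With ILMN_2931096 the 4 males lay between 387 and 437, all below the 4 females, which lay between 461 and 824. The log2 difference of males minus females was -0.48, with an unadjusted p of 0.0188 and an adjusted p of 0.524 in limma with strain as a term. ILMN_2931095 gave -0.41 with an adjusted p of 0.578, and with it male mouse 16 lay above female mouse 34. Female mouse 15 was the highest with both, and without it the differences were -0.33 (unadjusted p = 0.0326) and -0.26 (unadjusted p = 0.0878 in limma). Both probes count among the 8.31% of tested probes with an unadjusted p under 0.05 for sex, while 0 members were among the 0.0192% with an adjusted p under 0.05.

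Of the binding proteins, Igfbp5 showed the clearest separation of the strains. It is a secreted protein that binds the extracellular matrix as well as the IGFs. Its intensity was 770, 674, 511 and 627 in Nd2-mutant mice and 1803, 1105, 1004 and 1066 in control mice. Every Nd2-mutant mouse lay below every control mouse, with a gap from 770 to 1004. Igfbp5 was the only member probe without overlap, against 4.37% of all tested probes, or 2.13% when only those lower in Nd2-mutant mice are counted. The means were 645 ± 107 and 1245 ± 374 (SD, n = 4 each), a ratio of 1.93 of control over Nd2 mutant. The log2 fold change was -0.90 (SE 0.21), with a 95% interval from -1.36 to -0.44, an unadjusted p of 0.00129 and an adjusted p of 0.639 in limma. The exact permutation test gave p = 0.0286, 2-sided, which is the smallest p that 4 against 4 mice allow.

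Control mouse 15 had the highest Igfbp5 value, at 1803. Without it the log2 fold change was -0.71, with an unadjusted p of 0.00098 and an adjusted p of 0.596 in limma. Igfbp5 was the only member whose unadjusted p stayed under 0.05 in all 22 other settings of the analysis, with fold changes from -0.99 to -0.71 when 1 mouse was left out. The log2 fold change was -0.54 among males and -1.27 among females. The interaction of strain and sex for Igfbp5 had an unadjusted p of 0.0947 and an adjusted p of 1 in limma, so that a difference between the sexes was not shown. The interaction was 0.73 on the log2 scale (males minus females), 0.36 without mouse 15 and 1.10 without mouse 37. With either of these mice left out, the controls hold a single female, so that only the size is given. Over all tested probes 1.77% had an unadjusted and 0.0096% an adjusted interaction p under 0.05, and among the members there were 0 of either.

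Igfbp7 is a secreted protein that binds the IGFs only weakly, and its probe ILMN_2764588 was detected on all 8 arrays. The intensity was 4871, 6373, 5513 and 5761 in Nd2-mutant mice and 9182, 6773, 6719 and 6373 in control mice. Mice 32 and 37 shared the value of 6373, which quantile normalization can produce for equal ranks, and the strains met at that value. Igfbp7 had a log2 fold change of -0.36 (SE 0.16), with an unadjusted p of 0.0478 and an adjusted p of 0.639 in limma. The exact permutation test gave p = 0.0571, 2-sided. Here too mouse 15 was highest, and without it the log2 fold change was -0.24, with an unadjusted p of 0.0967. Over all 22 other settings the unadjusted p of Igfbp7 was under 0.05 in 9.

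Markers of smooth muscle cells and pericytes moved with the strain beside Igfbp5 and Igfbp7. Of the 12 tested probes of that list, 6 had an unadjusted p under 0.05, all with lower means in Nd2-mutant mice, against 3.13% of all tested probes in that direction, and 0 had an adjusted p under 0.05. 3 of the 6 were probes of Mcam, an adhesion molecule of pericytes and endothelium. The 3 probes of Mcam did not all separate the strains. With ILMN_2614531, Mcam was 39.5, 54.2, 36.7 and 57.1 in Nd2-mutant mice and 234, 111, 69.5 and 123 in control mice, without overlap. With ILMN_2955919 the strains overlapped, since mouse 35 at 146 lay above control mouse 17 at 115. The summed intensity of the list was 12590 to 15304 in Nd2-mutant and 15709 to 17942 in control mice. Most of that sum is Acta2, and without it the sums were 1369 to 2975 and 2723 to 5851, which overlap. The defining pericyte markers Rgs5 and Kcnj8 and the smooth muscle marker Cnn1 were detected on 0 arrays. Of 6 tested endothelial probes, Emcn alone had an unadjusted p under 0.05, with a log2 fold change of -1.20. Whether these cells or their genes have a part in the values of Igfbp5 and Igfbp7 was not tested.

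**Figure D3:**
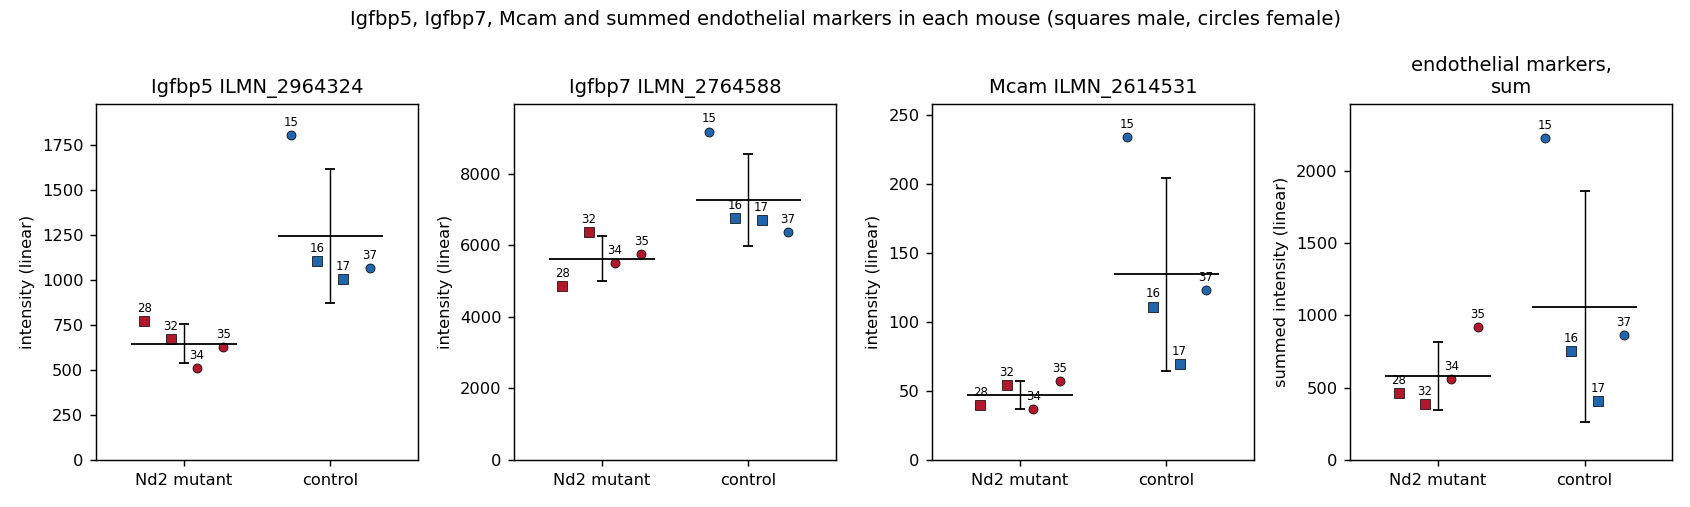
Normalized intensity (linear axis) of Igfbp5, Igfbp7 and the pericyte marker Mcam (1 of its 3 probes), and the summed intensity of 10 endothelial markers, in each mouse, numbered, with squares for males and circles for females. Horizontal lines and bars are the mean and SD of the 4 mice of a strain. Igfbp5 and this probe of Mcam did not overlap between the strains, although another Mcam probe did, and mouse 15 was highest in all 4 panels.

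Igfbp2, which binds IGF-II more tightly than IGF-I, had the most negative fold change of the members. With ILMN_2930897 its intensity was 47.6, 41.9, 69.5 and 42.7 in Nd2-mutant mice and 149, 187, 34 and 264 in control mice. 3 of the 4 control mice lay above every Nd2-mutant mouse, and control mouse 17 lay below them all. The means were 50.4 ± 12.9 and 159 ± 96.0 (SD, n = 4 each). The log2 fold change was -1.17 (SE 0.44), with a 95% interval from -2.14 to -0.19, an unadjusted p of 0.0233 and an adjusted p of 0.639 in limma. The exact permutation test gave p = 0.143, 2-sided. The difference depended on mouse 17, since without it the log2 fold change was -1.69, with an adjusted p of 0.143 in limma, the smallest of any member under any setting. Leaving out mouse 17 also raised the share of all tested probes with an unadjusted p under 0.05, from 7.63% to 14%. Without mouse 37 the log2 fold change of Igfbp2 was -0.86. The unadjusted p was no longer under 0.05 without mouse 32, 35, 16 or 37, and it was under 0.05 in 14 of 22 other settings in all.

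The other Igfbp2 probe, ILMN_1236788, was detected on 4 Nd2-mutant and 3 control arrays. Its intensity was 13.6, 11.2, 15.6 and 10.8 in Nd2-mutant mice and 14.2, 37.2, 11 and 95.3 in control mice. Mice 37 and 16 were again the highest, while mouse 15 lay among the Nd2-mutant mice. This probe gave a log2 fold change of -0.71 (SE 0.38; adjusted p = 0.640 in limma), and one of -0.29 without mouse 37. Igfbp2 and Igfbp5 are neighbours on mouse chromosome 1 and are read from opposite strands, with start sites 50.4 kb apart. Both had lower means in Nd2-mutant mice, and control mouse 17 was the lowest control mouse with both Igfbp2 probes and for Igfbp5. The highest control mouse differed, being mouse 37 with both Igfbp2 probes and mouse 15 for Igfbp5. Mouse 17 lay above every Nd2-mutant mouse for Igfbp5 but not for Igfbp2.

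Igfbp3, the main carrier of IGF-I in the blood, was the 1 binding protein with a positive fold change, that is a higher mean in Nd2-mutant mice. Its intensity was 89.1, 32.4, 26.8 and 122 in Nd2-mutant mice and 29.4, 12.0, 34.4 and 24.7 in control mice, and it was detected on 4 and 3 arrays. It passed the filter on detection only through the Nd2-mutant arrays, where its mean was higher, so that its p-value is not independent of the filter. The higher mean rested on mice 28 and 35, and the values of mice 32 and 34 lay among the controls. Igfbp3 had a log2 fold change of 0.88 (SE 0.36), with a 95% interval from 0.08 to 1.68, an unadjusted p of 0.0348 and an adjusted p of 0.639 in limma. The exact permutation test gave p = 0.143, 2-sided. Without mouse 35 the fold change was 0.58, and the unadjusted p was under 0.05 in 10 of 21 other settings in which the probe was tested. Mice 28 and 35 were also those with high Igf2 and H19 among the Nd2-mutant mice, but control mouse 15, with the highest Igf2, had 29.4 for Igfbp3. Igfbp1, which neighbours Igfbp3 on chromosome 11 at a distance of 16.1 kb between start sites, was detected on 0 arrays.

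Igfbp4, an inhibitor of IGF action that is cleaved by the protease PAPP-A, had lower means in Nd2-mutant mice with both of its probes. With ILMN_1258988 its intensity was 181, 148, 81.4 and 240 in Nd2-mutant mice and 328, 315, 193 and 145 in control mice. With ILMN_2694955, for which the table names no chromosome, it was 152, 115, 77.1 and 252 in Nd2-mutant mice and 237, 202, 168 and 130 in control mice. The strains overlapped with both probes, and mouse 34 was the lowest of all 8 mice with both. The log2 fold changes were -0.56 (SE 0.32; adjusted p = 0.650 in limma) and -0.36 (SE 0.30; adjusted p = 0.726). Single mice moved the size of both. Without mouse 34 the fold changes were -0.30 and -0.12, and without mouse 35 they were -0.76 and -0.63, the latter both with an unadjusted p under 0.05.

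Igfbp6, which prefers IGF-II, had nearly the same mean in both strains. Its intensity was 674, 567, 647 and 851 in Nd2-mutant mice and 584, 811, 760 and 627 in control mice. The log2 fold change was -0.02 (SE 0.17; adjusted p = 0.974 in limma), with a 95% interval from -0.40 to 0.35. The 2 Nd2-mutant males lay below the 2 control males, at -0.34, and the 2 Nd2-mutant females above the 2 control females, at 0.29. The interaction of strain and sex had an unadjusted p of 0.0748 and an adjusted p of 1 in limma.

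**Figure D4:**
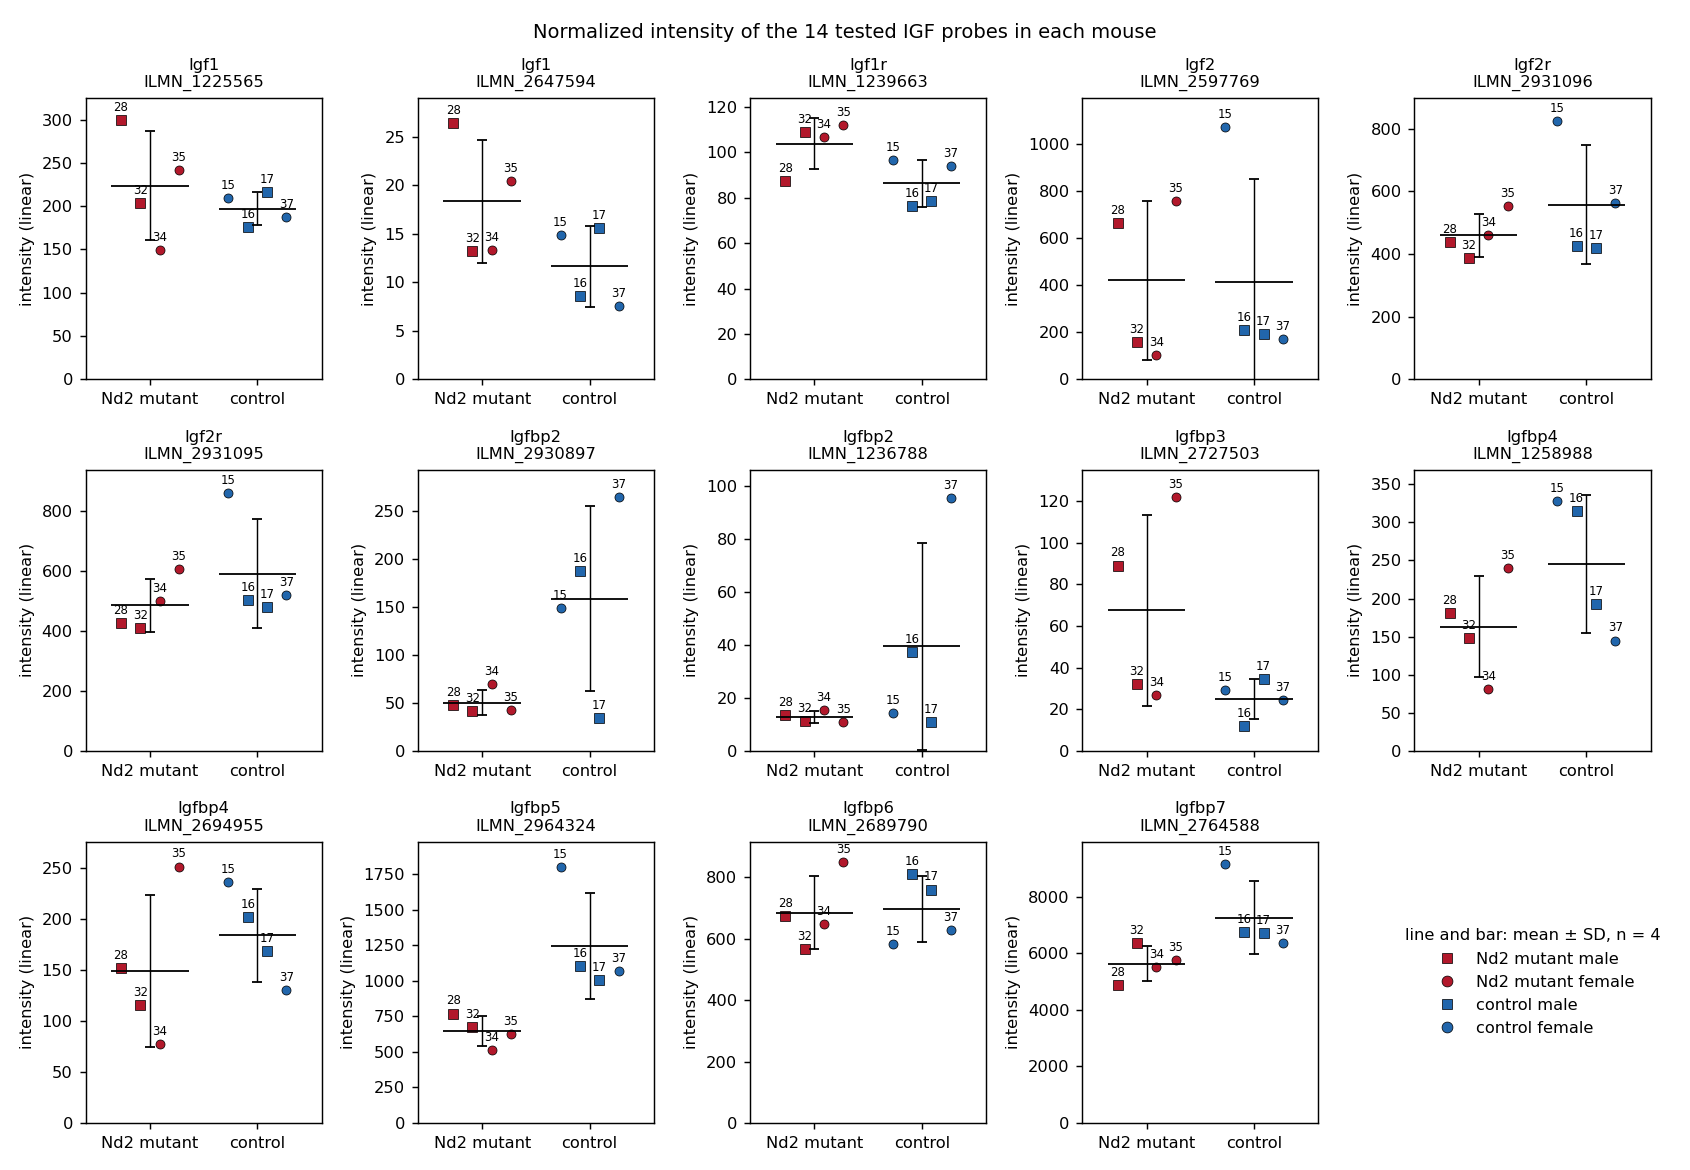
Normalized intensity (linear axis, own scale in each panel) of the 14 tested probes of the IGF genes in each mouse, numbered. Red marks Nd2-mutant and blue control mice, squares males and circles females, and lines and bars are the mean and SD of 4 mice, with bars clipped at 0. Igfbp5 alone separated the strains, and mouse 15 was the highest of the 8 mice in 6 of 14 panels.

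Across the members the mice differed among themselves as well as by strain. Control mouse 15 had the highest intensity with 6 of the 14 probes and Nd2-mutant mouse 35 with 4. Nd2-mutant mouse 34 had the lowest with 5. With mice 15 and 35 left out together, a choice made after the values were seen, Igfbp5 was the 1 member with an unadjusted p under 0.05 (log2 fold change -0.70, unadjusted p = 0.00299 in limma), and the median over the members was -0.19.

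The sequences just before the start sites are shown for the 4 genes with an unadjusted p under 0.05, to set beside each other the promoters of binding proteins whose means lay in opposite directions. Each is the last 100 bases before the first RefSeq start site listed, on build GRCm38.p6, written on the strand of the gene. Capitals mark matches on either strand to the letters TATAAA of the standard TATA box, to its variants spelled TATATA and also TATTTAA, and to the GC box core GGGCGG. These motifs were chosen after the sequences were read, and matches that overlap run together.
Igfbp2: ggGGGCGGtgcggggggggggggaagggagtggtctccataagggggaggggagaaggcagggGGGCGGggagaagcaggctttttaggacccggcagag
Igfbp3: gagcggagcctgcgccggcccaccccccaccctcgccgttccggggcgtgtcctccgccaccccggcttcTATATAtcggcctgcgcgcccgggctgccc
Igfbp5: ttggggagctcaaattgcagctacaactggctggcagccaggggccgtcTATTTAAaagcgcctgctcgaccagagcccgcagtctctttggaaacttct
Igfbp7: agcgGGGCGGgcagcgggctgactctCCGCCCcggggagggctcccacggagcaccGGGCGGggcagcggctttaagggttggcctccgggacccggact

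These windows lie at chr1:72824380-72824479 (+) for Igfbp2, chr11:7213924-7214023 (-) for Igfbp3, chr1:72874866-72874965 (-) for Igfbp5 and chr5:77408046-77408145 (-) for Igfbp7. The Igfbp5 window held 1 TATTTAA, which 1.5% of the 32851 windows of the same length hold, and none of the other motifs. Igfbp3 held 1 TATATA (2.19% of windows). Igfbp7 held 3 and Igfbp2 held 2 copies of GGGCGG, which 24.7% of windows hold at least once, and TATAAA (5.56% of windows) was in none of the 4. The GC content was 55% for Igfbp5, which is the median of all windows, and 71% for Igfbp2 and 77% for Igfbp3 and Igfbp7. Of the 3 printed genes with lower means in Nd2-mutant mice, Igfbp2 and Igfbp7 both held GGGCGG, and Igfbp5 shared no match with either. The motif did not follow direction over the other members. Igf1r, with a higher mean, held 2 copies of GGGCGG, and Igf2r, with lower means, held 3. Igfbp4, with lower means, held 0 copies and 1 TATAAA. The window before the second listed start site of Igfbp2 held none of the motifs. Whether these matches have a part in the strain differences was not tested.

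The genes around the IGF system gave 0 probes with an adjusted p under 0.05 as well. Of other carriers and of the proteases that cut the binding proteins, 4 probes of 3 genes were tested, 2 with a positive and 2 with a negative fold change. 1 of them, of Htra1, had an unadjusted p under 0.05 with a lower mean, as 3.13% of all tested probes did. Htra1, a protease that cleaves Igfbp5, was read by 2 probes and is on the study's list of lower genes from these same arrays. With ILMN_2966104 it was 280, 372, 365 and 456 in Nd2-mutant mice and 546, 461, 491 and 536 in control mice. Every Nd2-mutant mouse lay below every control mouse, with a narrow gap from 456 to 461, and the log2 fold change was -0.47 (SE 0.16; adjusted p = 0.639 in limma). With ILMN_2746738 it was 273, 431, 301 and 518 in Nd2-mutant mice and 455, 443, 441 and 476 in control mice. Here the strains overlapped, with mouse 35 above every control mouse, and the log2 fold change was -0.29 (unadjusted p = 0.172 in limma). Adam12, which cleaves Igfbp3 and Igfbp5, had a log2 fold change of 0.62 (SE 0.28), and Stc2, an inhibitor of PAPP-A, one of 0.30 (SE 0.25). Neither had an unadjusted p under 0.05.

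Of the genes of insulin and IGF receptor signalling, 39 probes of 28 genes were tested. 17 had a positive and 22 a negative fold change, with a median of -0.05, and at an unadjusted p under 0.05 there were 4 higher and 1 lower, against 4.5% and 3.13% of all tested probes. The smallest p values were those of Mapk3, the kinase ERK1 (ILMN_2715744, log2 fold change 0.49, SE 0.17), Rps6kb1, the S6 kinase (0.45, SE 0.17), and Pik3cb, a catalytic subunit of PI3 kinase (-0.42, SE 0.16). All 3 probes were dim, with intensities from 11.1 to 61.1, and each had an adjusted p of 0.639 in limma. Those of Mapk3 and Rps6kb1 were detected on 7 and 6 of 8 arrays. Both passed the filter on detection only through the Nd2-mutant arrays, where their means were higher. The other Rps6kb1 probes were detected on 0 arrays. The other Mapk3 probe, ILMN_1218551, was detected on all 8 arrays at 41.8 to 65.4 and gave a log2 fold change of 0.09 (unadjusted p = 0.557 in limma).

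Of the imprinted and Igf2-regulating genes, 11 probes of 9 genes were tested, 8 with a positive and 3 with a negative fold change and a median of 0.15. At an unadjusted p under 0.05 there were 3 higher and 0 lower, against 4.5% and 3.13% of all tested probes, and 2 of the 3 were probes of Gnas. Gnas is an imprinted locus that encodes the G protein subunit Gs alpha. With ILMN_1223437 it was 262, 212, 189 and 233 in Nd2-mutant mice and 104, 134, 169 and 133 in control mice, without overlap. Its log2 fold change was 0.68 (SE 0.17; adjusted p = 0.639 in limma), and that of ILMN_2632206 was 0.94. Dlk1, a paternally expressed regulator of differentiation, was 88.0, 14.1, 40.6 and 58.4 in Nd2-mutant mice and 26.9, 14.5, 14 and 25.5 in control mice, and mouse 32 lay among the controls. Its log2 fold change was 0.76 (SE 0.33; adjusted p = 0.639 in limma).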

How the data were processed

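RNA of skin fibroblasts of 4 Nd2-mutant and 4 control mice was measured on Illumina MouseRef-8 BeadChips. The labels give strain, sex and mouse, and each sample is a separate mouse. Extraction and quantile normalization between arrays were done by the authors in GenomeStudio, with background subtracted where needed. Each deposited intensity is a linear value, and 26.2% are 0 or lower. The deposited detection p-value compares each probe with negative control beads. The 2 deposited tables hold the same bytes, so that normexp on non-normalized values was not run, and the arrays carry no chip name that could serve as a block. Depth has no counterpart on an array; the number of arrays limits the precision.

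Intensities below 0 were raised to 0 and log2(intensity + 16) was used. Tested probes had a detection p under 0.01 on all 4 arrays of at least 1 strain. In R 4.3.3, limma 3.58.1 compared the strains with 2-sided moderated tests, adjusted after Benjamini and Hochberg over the 10414 probes, at a threshold of 0.05. Sex was tested in a fit with strain as a term, and a further fit held the strain by sex interaction. For single probes an exact permutation test over the 70 splits of 8 mice was added. Alternatives were 1 or 50 added before log2, the linear scale, 3 other filters on detection, the methods' t-test, a trend in eBayes, array weights, sex as a term, median centring, each mouse left out and each sex alone. Leaving out mice 15 and 35 together, and each mouse from the tests of sex and interaction, were choices made once the data were known. Summed marker intensities use the brightest probe of each gene. On simulated data of the same 10414 probes, limma recovered 5 of 69 differences of 0.5 (log2), 49 of 66 of 1 and 63 of 65 of 2. It made 12 false calls there, and 0 calls in data without differences. Simulated probes were drawn independently of each other, with no array that stood apart as that of mouse 15 did. The recovered shares therefore need not hold for the real arrays.

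Genes named were all members, the 3 genes with the smallest p in each of 3 further IGF lists, 5 fibroblast markers, and marker genes that stand beside a result; others are marked as chosen after their values were seen. List symbols were matched to the array through RefSeq synonyms. Members and lists were chosen with earlier results of these data known. Promoter sequences are from RefSeq on GRCm38.p6, and 10 of 10 member genes matched. Besides the fibroblast, endothelial, macrophage and smooth muscle lists, 4 other marker lists gave summed intensities in Nd2-mutant and control mice of 225 to 1236 and 393 to 1120 (keratinocyte), 2263 to 7049 and 1630 to 5089 (adipocyte), 385 to 1050 and 850 to 1775 (skeletal muscle), and 74.0 to 175 and 111 to 342 (Schwann cell and melanocyte).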

Additional observations from a re-analysis of the deposited data

Results flagged for a closer look

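Control mouse 15 lay far above the other 3 control mice for 4 member probes. The gap between mouse 15 and the next control mouse, as a share of the whole range of the controls on the log2 scale, was 0.887 for Igf2, 0.869 for Igf2r (ILMN_2931095), 0.837 for Igfbp5 and 0.833 for Igfbp7, above Dixon's 95% critical value for 4 samples. Of 28 groups tested (14 probes in 2 strains), 1.4 would pass by chance at a rate of 1 in 20, and the probes are not independent, since all share this array. Without mouse 15 the log2 fold changes were 0.64, -0.058, -0.71 and -0.24 in that order.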

How the results depend on the processing

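Of the 14 tested member probes, 11 kept the direction of their strain difference under all settings tried, and 0 had an adjusted p under 0.05 under any. No paired analysis was possible because no mouse number occurs in both groups. Normexp from non-normalized values was not run, since the second table holds the same values. Over all probes, limma passed 3 with no filter on detection (Exoc7, and Olfr259 and V1rb1, both named after their values were seen) and the methods' t-test passed 1, against 0. Member probes with an unadjusted p under 0.05 numbered 4, and 2 with no filter on detection, 2 with the methods' t-test, 1 among males only, 2 among females only and 1 with mice 15 and 35 left out together. Member probes without overlap numbered 1, and 7 among males only and 6 among females only, where 35.3% and 33.6% of all tested probes do not overlap. With 1 mouse left out, the number with an unadjusted p under 0.05 was 1 (without control mouse 16) to 4, that without overlap 1 to 2, the number with an adjusted p under 0.05 was 0 for the members and for all probes, and the median fold change -0.36 (without mouse 35) to -0.08 (without mouse 15). The direction turned for 3 probes whose fold changes were near 0: Igf1 ILMN_1225565 (females only -0.051; -0.010 to 0.30 with 1 mouse left out), Igf2 (females only -0.57; -0.38 to 0.64) and Igfbp6 (females only 0.29; -0.13 to 0.059). The counts of members with an adjusted p under 0.05 for sex and for the interaction were 0 under each setting run. The cause was not tested.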
